A study of Mus musculus with 4 samples.

Results

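The genes described here are Cubn, Amn and Lrp2, which encode the endocytic receptor proteins cubilin, amnionless and megalin, together with Dab2, an adaptor of those receptors, and Lrpap1, their chaperone. They are 5 of the 18193 genes with a probe set of their own, and GEO's platform annotation lists exactly their symbols for 14 of the array's 45101 probe sets. The group was chosen by the measured difference between shPhf19 and shVector cells, in which Cubn and Dab2 were among the largest rises, and filled with the genes of their partners. The differences of all 14 probe sets in that comparison are therefore given as a description, and no test of them is offered as support. RNA came from F9, an established mouse line of embryonal carcinoma whose cells can form endoderm in culture. All cells had been infected with pLKO.1 lentivirus and selected with puromycin as stable lines. The shVector group (2 arrays) carried the vector control and the shPhf19 group (2 arrays) carried a short hairpin RNA against Phf19, a Polycomb-like partner of Polycomb repressive complex 2 (PRC2). How many hairpin sequences were used, and whether replicates came from separate infections, is not stated in these sources, so errors and p-values measure only the spread between the arrays at hand.

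Cubilin is a large peripheral protein that binds many ligands, but it has no membrane anchor of its own. Amnionless, a small transmembrane protein, carries cubilin to the apical surface, and megalin, a giant member of the LDL receptor family, works beside them. Dab2 links the receptor tails to clathrin-coated pits, and the protein of Lrpap1 (also called RAP) protects newly made LDL receptor family proteins from binding ligands too early. Visceral endoderm uses this machinery to take up maternal nutrients for the embryo, as the kidney's proximal tubule uses it to recover filtered proteins.

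The windows before the annotated starts of Cubn, Dab2 and Lrp2 are shown because these genes had the largest differences and because PRC2 binds mostly at DNA rich in CpG, the dinucleotide CG. RefSeq sequence of build GRCm38.p6 was used, as the table of values names no build. Each window holds the 250 bases before a start, 5′ to 3′ on the gene's strand, and capitals mark CG and the GATA-factor core GATAA on either strand (TTATC on the other). No GATAA match overlapped a CG.
Cubn, chr2:13491877-13492126, minus strand: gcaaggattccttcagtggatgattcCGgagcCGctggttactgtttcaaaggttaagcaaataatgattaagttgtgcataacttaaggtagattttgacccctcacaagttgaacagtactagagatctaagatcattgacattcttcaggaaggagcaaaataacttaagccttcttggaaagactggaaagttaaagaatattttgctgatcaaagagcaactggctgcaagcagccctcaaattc
Dab2 first start, chr15:6299539-6299788, plus strand: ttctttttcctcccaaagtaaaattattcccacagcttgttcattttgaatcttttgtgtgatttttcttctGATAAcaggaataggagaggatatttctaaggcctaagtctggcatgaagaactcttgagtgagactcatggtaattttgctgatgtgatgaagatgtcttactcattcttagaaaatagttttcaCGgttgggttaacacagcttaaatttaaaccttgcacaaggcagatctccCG
Dab2 second start, chr15:6386498-6386747, plus strand: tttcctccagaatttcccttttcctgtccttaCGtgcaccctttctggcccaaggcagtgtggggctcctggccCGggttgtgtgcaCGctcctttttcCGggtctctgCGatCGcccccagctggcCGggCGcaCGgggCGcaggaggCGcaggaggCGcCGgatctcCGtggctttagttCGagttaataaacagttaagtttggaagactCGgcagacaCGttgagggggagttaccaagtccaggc
Lrp2, chr2:69586030-69586279, minus strand: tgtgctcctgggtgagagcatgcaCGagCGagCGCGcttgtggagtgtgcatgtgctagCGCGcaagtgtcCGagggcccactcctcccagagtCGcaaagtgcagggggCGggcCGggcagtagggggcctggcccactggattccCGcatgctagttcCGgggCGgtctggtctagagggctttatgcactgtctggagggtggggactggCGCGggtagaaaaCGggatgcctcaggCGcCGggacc

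The windows differed in CpG content. The Cubn window held 2 CpG and had an observed over expected CpG ratio of 0.206, a value above that of 30.7% of the 32841 windows in the table (median ratio 0.374). The first Dab2 window was similar, with 2 CpG and a ratio of 0.237, whereas the second held 17 CpG at a ratio of 0.757. The Lrp2 window held 18 CpG at a ratio of 0.685. Of the members' 6 windows, 3 were CpG-rich (ratio above 0.6 and GC above 50%), namely the second Dab2 window, Lrp2 and Lrpap1 (ratio 0.638). This class held 30.8% of all windows. Amn lay below it with a ratio of 0.47. A GATAA match was found in 2 of the 6 windows, beginning 178 bases before the first Dab2 start and 191 bases before the Lrpap1 start, against 22.6% of all windows. Which Dab2 start was used in these cells was not analysed here.

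The deposited values were taken as log2, with array medians between 5.75 and 5.77, and the depth of an array has no read count: the number of arrays limits the precision. Differences are shPhf19 minus shVector on that scale with limma's moderated standard error (SE), and the SD given for a group comes from 2 arrays. A probe set was called where limma's adjusted p over all 45037 tested probe sets was under 0.05. Replicate arrays correlated at 0.9974 in shVector and 0.9984 in shPhf19. The targeted gene, Phf19, read 6.07 and 6.14 in shVector and 5.08 and 5.17 in shPhf19 with probe set 1427920_at, a fall called by limma. Its probe set 1431857_at read 6.32 and 6.11 in shVector and 6.05 and 6.26 in shPhf19, where the groups overlapped and no call was made.

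All 14 probe sets of the 5 genes were higher on average in shPhf19 cells, from 0.09 to 2.30, and 0 of them were called lower, where 0.582% of all tested probe sets were. The median of the 14 differences was 0.27, against -0.01 over all tested probe sets, of which 48.2% were above 0. In 13 of the 14 both shPhf19 arrays lay above both shVector arrays, an arrangement that 19.4% of all probe sets had. limma called 3 of the 14, both of Cubn and 1 of Dab2, where the background of probe sets called higher was 0.83%. Since the comparison chose the genes, nothing is read from these shares. Without any 1 of the 4 arrays (shVector replicate 1 or 2, shPhf19 replicate 1 or 2), 0 of the 14 were called, nor was any other probe set on the array.

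**Figure D1:**
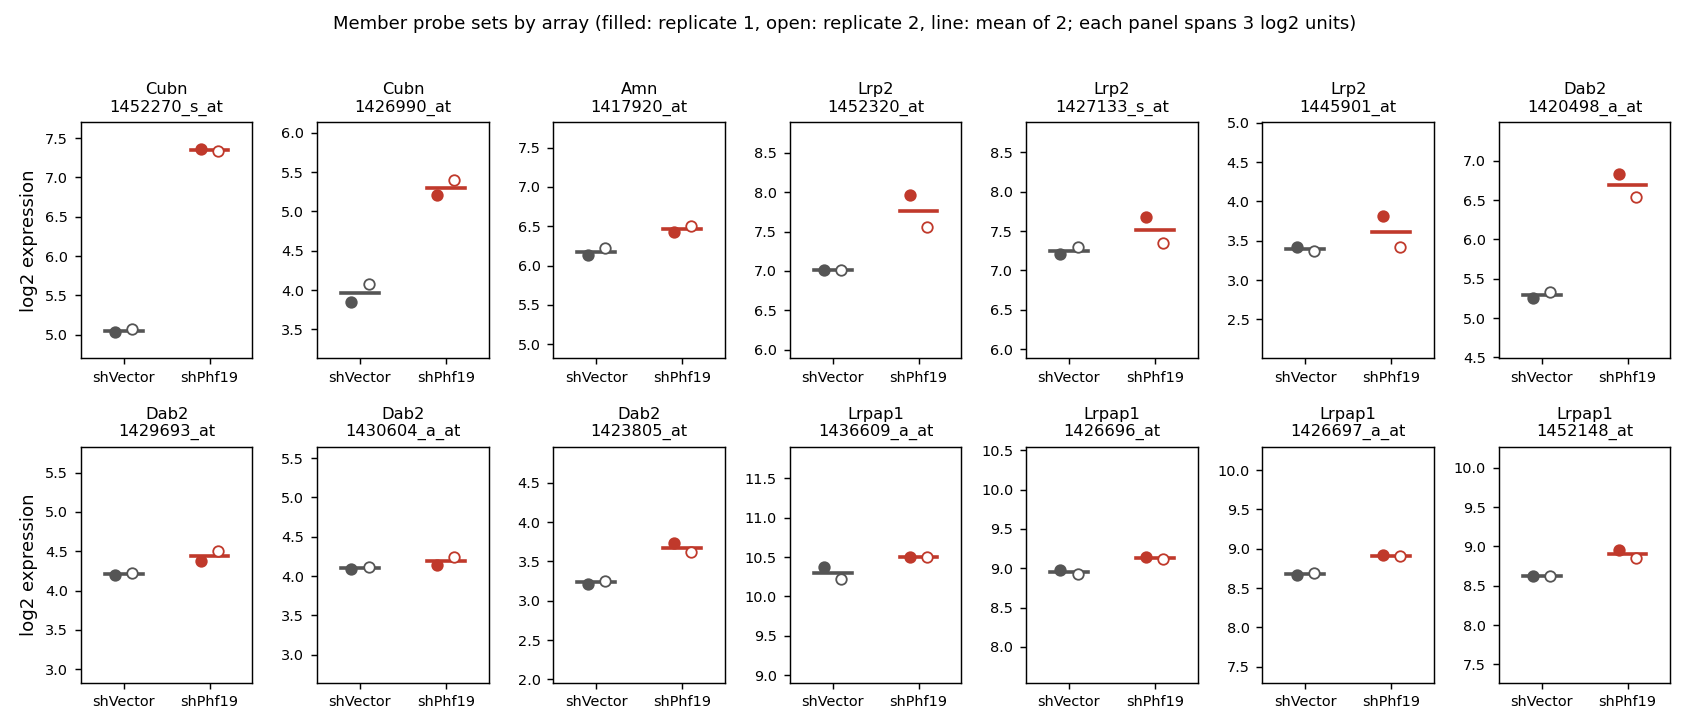
Log2 expression of the 14 probe sets in each array, one panel per probe set, with shVector in grey and shPhf19 in red. Filled points are replicate 1, open points replicate 2 and lines the mean of 2 arrays. Panels have the same span, and the steps of Cubn (2.30 and 1.34) and of Dab2 1420498_a_at (1.40) stand out, while the other panels have small steps or spread shPhf19 points (Lrp2).

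Among the receptor genes Cubn had the largest difference, with both of its probe sets. Probe set 1452270_s_at read 5.03 and 5.07 in shVector and 7.36 and 7.33 in shPhf19. Means were 5.05 ± 0.03 (SD, n = 2) and 7.35 ± 0.02, a difference of 2.30 ± 0.09 (SE), or 4.91-fold (95% interval 4.24 to 5.69). The replicates of either group differed by at most 0.04, far less than the gap of 2.26 between the nearest arrays of the groups. Both shVector values lay below the array medians and may be background, in which case the fold of the transcript is not measured exactly. Probe set 1426990_at read 3.85 and 4.08 in shVector and 5.21 and 5.40 in shPhf19. That is a difference of 1.34 ± 0.12 (SE), or 2.53-fold (95% interval 2.06 to 3.10). All 4 of its values lay below the array medians, and its interval does not reach that of the first probe set. The suffix _s_at marks a probe set that can also hybridise to related transcripts, so the first value may include other RNA. Without 1 array the differences stayed between 2.28 and 2.31 for the first and between 1.22 and 1.45 for the second, and neither was called.

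Amn, which encodes cubilin's membrane anchor, differed far less. Its only probe set, 1417920_at, read 6.13 and 6.22 in shVector and 6.43 and 6.50 in shPhf19. The groups did not overlap, but the difference of 0.29 ± 0.09 (SE), or 1.22-fold, was not called. Its 95% interval ran from 0.07 to 0.51, below that of either Cubn probe set.

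Lrp2, the megalin gene, was higher in shPhf19 cells by unequal amounts on its 3 probe sets, and none was called. Probe set 1452320_at read 7.01 on both shVector arrays and 7.96 and 7.56 on the shPhf19 arrays, a difference of 0.75 ± 0.14 (SE), or 1.68-fold (95% interval 1.33 to 2.11). Probe set 1427133_s_at read 7.20 and 7.30 in shVector and 7.69 and 7.35 in shPhf19 (0.27 ± 0.13 SE). The groups were separate on both, on the second by only 0.05. The dim probe set 1445901_at read 3.42 and 3.37 in shVector and 3.81 and 3.42 in shPhf19 (0.22 ± 0.14 SE), and shPhf19 replicate 2 had the same value as shVector replicate 1.

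The shPhf19 arrays differed from each other on all 3 Lrp2 probe sets. Replicate 1 was above replicate 2 by 0.40, 0.34 and 0.39 in the order above, where the SD of that difference over all probe sets was 0.149. Without shPhf19 replicate 1 the Lrp2 differences were 0.55, 0.09 and 0.02, and without shPhf19 replicate 2 they were 0.94, 0.44 and 0.41. The size of the Lrp2 difference therefore varied with the shPhf19 array used. The main Dab2 probe set had the same order of arrays, with replicate 1 above replicate 2 by 0.29. On the other Dab2 probe sets, replicate 1 minus replicate 2 was 0.124 (1423805_at), -0.125 (1429693_at) and -0.0986 (1430604_a_at). For Cubn it was 0.03 on 1452270_s_at and -0.19 on 1426990_at.

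Dab2, the clathrin adaptor gene, was higher mainly on 1 of 4 probe sets. Probe set 1420498_a_at read 5.25 and 5.33 in shVector and 6.83 and 6.54 in shPhf19. Means were 5.29 ± 0.06 (SD, n = 2) and 6.69 ± 0.21, a difference of 1.40 ± 0.12 (SE), or 2.64-fold (95% interval 2.15 to 3.23). The groups were 1.21 apart, and the shPhf19 arrays spread more than the shVector arrays. As for Cubn, both shVector values lay below the array medians and may be background. Without 1 array the difference ranged from 1.25 to 1.54 and was not called.

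The other Dab2 probe sets were dim and differed less, and none was called. Probe set 1423805_at read 3.22 and 3.26 in shVector and 3.74 and 3.61 in shPhf19, a difference of 0.44 ± 0.09 (SE). Probe set 1429693_at read 4.20 and 4.23 in shVector and 4.38 and 4.51 in shPhf19 (0.23 ± 0.10 SE). Their groups did not overlap, and all 8 values lay below the array medians. Probe set 1430604_a_at read 4.09 and 4.11 in shVector and 4.14 and 4.24 in shPhf19, a difference of 0.09 ± 0.09 (SE) with a 95% interval from -0.13 to 0.31. The interval of 1420498_a_at, from 1.11 to 1.69, lies above those of the other 3 probe sets. Detection calls were not used here, so a low value may be background. The transcript forms that each probe set detects were not analysed here, and the part of background or of transcript form in this disagreement was not tested.

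Lrpap1, the chaperone gene, read well above the array medians on all 4 probe sets and showed small, even differences. Probe set 1436609_a_at read 10.38 and 10.22 in shVector and 10.50 and 10.51 in shPhf19, a difference of 0.21 ± 0.07 (SE). Probe set 1452148_at read 8.62 on both shVector arrays and 8.95 and 8.86 in shPhf19, the largest of the 4 differences at 0.28 ± 0.08 (SE). The groups were separate on both. The probe sets 1426697_a_at (0.23 ± 0.07 SE) and 1426696_at (0.18 ± 0.07 SE) lay between or just below these. None was called, and their 95% intervals together ran from 0.00 to 0.47, which excludes a rise as large as those of Cubn or of Dab2 1420498_a_at.

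**Figure D2:**
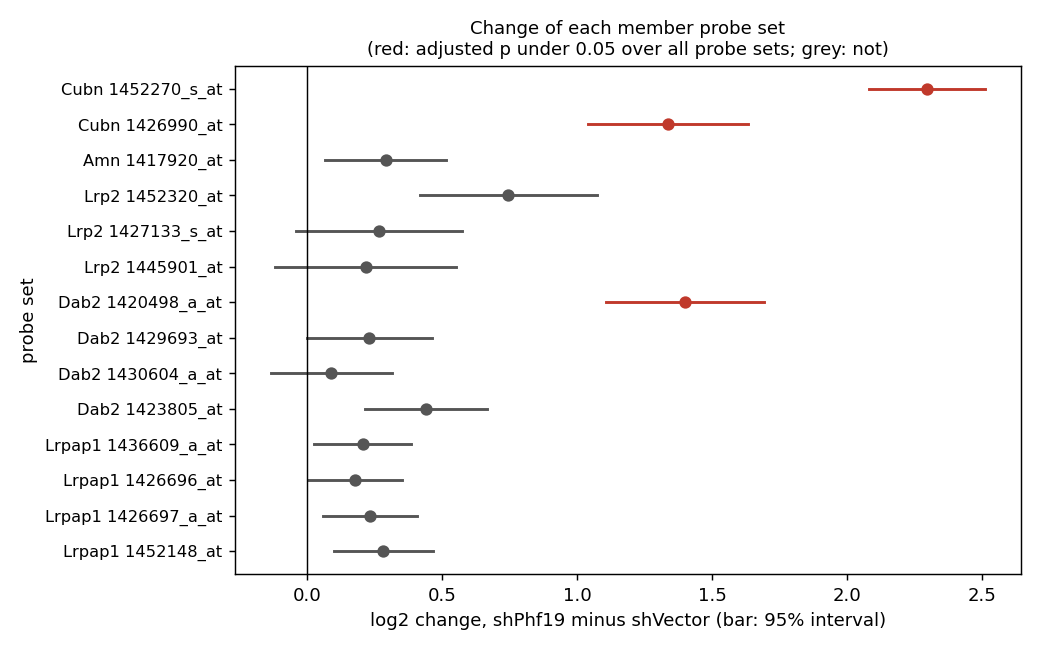
Differences of the 14 probe sets, shPhf19 minus shVector on the log2 scale (points), with 95% intervals from limma (bars). Both Cubn probe sets and Dab2 1420498_a_at, in red, were called over all probe sets, and the 11 in grey, from 0.09 to 0.75, were not.

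Genes with the profile most like Cubn and Dab2 over the 4 arrays were found by Euclidean distance between log2 values centred on each gene's mean. The candidates were 11174 genes whose mean over all 4 arrays reached the array median, so high shPhf19 values could bring a gene in. Nearest to Cubn was the meiotic germ cell gene Meioc, at a distance of 0.149, followed by Slc39a8, a metal ion transporter gene, at 0.564. Lef1, Efnb2 and Stox2 followed at 0.801 to 0.903. Of these 5 neighbours, Meioc had a difference larger than Cubn's and the other 4 a smaller one. Dab2 had closer neighbours: Zfp365 at 0.0637, Fam171b at 0.124, Stox2 at 0.155, Lef1 at 0.178 and Otx2 at 0.232. Lef1, a Wnt pathway transcription factor gene, and Stox2 were on both lists. Some neighbours read near or below the array medians in shVector: Meioc (5.63 and 5.76), Slc39a8 (5.19 and 5.76), Fam171b (5.25 and 5.49) and Otx2 (5.54 and 5.46). Those values may be background, so the steps of these genes may not be exact. All 5 neighbours of Dab2 shared its higher value in shPhf19 replicate 1. The distance over all 4 arrays selects for that order, so nothing is read from it. With 4 arrays in 2 groups, likeness describes mainly the size of the step between the groups.

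**Figure D3:**
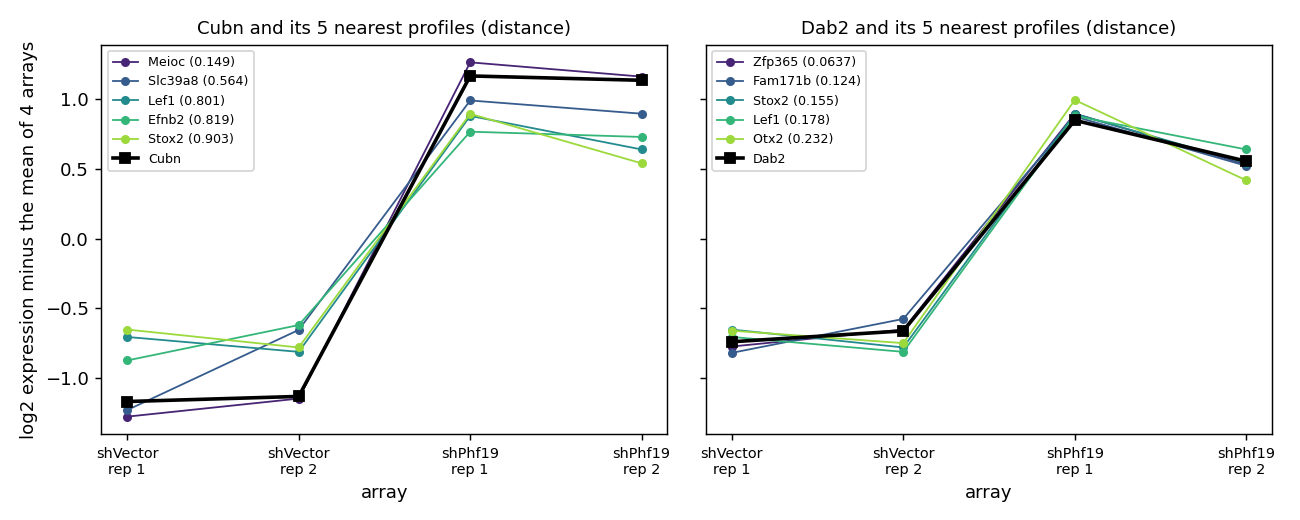
Log2 expression minus each gene's mean of 4 arrays, for Cubn (left) and Dab2 (right, 1420498_a_at) in black and their 5 nearest genes in colour, with the distance in brackets. Lines only join the points of a gene. Meioc (0.149) follows Cubn most closely, and all 5 genes beside Dab2 lie within 0.232 of it.

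Relatives of megalin moved in both directions. Of 20 measured genes of the LDL receptor family and related sorting receptors, 1 rose, 2 fell and 17 did not pass, with 8 of 20 above 0. The median change was -0.02, and 5 of the 20 had an unadjusted p under 0.05 by limma. Over all 18193 genes, represented by the probe set with the highest mean, 1.15% were called higher and 0.863% lower, with a median of 0.00, and 15.1% had an unadjusted p under 0.05. The counts at an unadjusted p given for this list and those that follow are to be read against that share. Lrp4, a receptor of agrin and an inhibitor of Wnt signalling, rose from 5.77 to 6.65 (0.88 ± 0.09 SE, limma adjusted p = 0.0147), with both shPhf19 arrays above both shVector arrays. Sorl1, a sorting receptor gene, fell from 9.80 to 9.05 (-0.75 ± 0.08 SE, limma adjusted p = 0.0137), with 2 of its 3 probe sets called. Vldlr, the very low density lipoprotein receptor gene, fell by 0.49 on the log2 scale (SE 0.06, limma adjusted p = 0.0242), with 4 of its 6 probe sets called. The changes of the 6 ran from -0.97 to -0.48. Without any 1 of the 4 arrays, 0 of the list's genes passed.

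Genes of the wider uptake machinery mostly stayed short of the threshold. Of 32 adaptor genes with phosphotyrosine-binding domains or a place in clathrin coats, 1 rose, 0 fell and 5 had an unadjusted p under 0.05 by limma (median change 0.00, 16 above 0). The riser was Gulp1, an engulfment adaptor that like Dab2 has a phosphotyrosine-binding domain (0.64 ± 0.10 SE, limma adjusted p = 0.0364), although only 1 of its 3 probe sets was called. Of 38 genes of vesicle scission and endosome traffic, 1 rose, 1 fell and 36 did not pass (median change 0.01, 22 above 0). An unadjusted p under 0.05 by limma was reached by 9 of the 38 (23.7%). Sh3kbp1, an adaptor also called CIN85, rose (0.65 ± 0.10 SE, limma adjusted p = 0.0386) on 1 of its 4 probe sets. Sh3gl2, which encodes endophilin A1, fell (-0.83 ± 0.08 SE, limma adjusted p = 0.0103) on 1 of its 3. Rab11a, named after its values were seen, is among the 36. Its representative probe set was at -0.03, but its other probe set was called at -0.71. None of these calls was made without any 1 of the 4 arrays.

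Ligands and signalling partners showed few calls. Of 25 genes whose proteins bind cubilin or megalin, 0 rose, 1 fell and 5 had an unadjusted p under 0.05 by limma (median change -0.04, 9 above 0). Mt2, the metallothionein-2 gene, fell from 13.56 to 13.15 (-0.41 ± 0.04 SE, limma adjusted p = 0.0108), a call not made without any 1 of the 4 arrays or without a variance trend. Of 15 genes for partners of Dab2 in signalling, limma called 0, and 2 had an unadjusted p under 0.05 (median change -0.03). These were Tgfbr2, a TGF-beta receptor gene (-0.30 ± 0.10 SE, limma adjusted p = 0.292), and Dab2ip, which encodes a Ras GTPase activator that binds Dab2 (0.21 ± 0.08 SE, limma adjusted p = 0.368).

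Markers of the cell types that use this machinery were set beside these values. Of 20 visceral endoderm markers, 2 rose, 0 fell and 5 had an unadjusted p under 0.05 by limma. Gata6, a transcription factor gene of extraembryonic endoderm, rose 2.28-fold (1.19 ± 0.13 SE, limma adjusted p = 0.0149) on 1 of its 3 probe sets. Both of its shVector values lay below the array medians and may be background, so the fold may not be exact. Spink1, a secreted trypsin inhibitor gene, rose 1.79-fold (0.84 ± 0.12 SE, limma adjusted p = 0.032). Sox17, an endoderm transcription factor gene named after its values were seen, had its representative probe set at 0.27 ± 0.11 (SE, not called), while its other probe set, 1429177_x_at, was called at 1.41 ± 0.12 (SE, limma adjusted p = 0.00875). It read 3.55 and 3.76 in shVector and 5.18 and 4.95 in shPhf19, all below the array medians. These values may be background, so the size of this change may not be exact. The mean log2 level of the list was 5.63 on both shVector arrays and 5.77 and 5.75 in shPhf19, and its median change was 0.02. Afp, a defining visceral endoderm gene named after its values were seen, read 4.67 on both shVector arrays and 4.34 and 4.66 in shPhf19, below the array medians. Gata4, Foxa1 and Foxa2, named in the same way, had positive differences of 0.38, 0.37 and 0.30. Vil1 and Cer1, also named in this way, had negative differences of -0.28 and -0.21. None of these was called, and the values likewise lay below the array medians. Of the 5 markers with an unadjusted p under 0.05 by limma, Gata6, Spink1, Gata4 and Sox17 were above 0 and Vil1 was below. Of the 20 markers, 11 were above 0.

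Of 16 parietal endoderm markers, 5 rose and 1 fell, with Col4a1 (1.04 ± 0.08 SE), Col4a2 (1.03 ± 0.09 SE) and Lamb1 (0.91 ± 0.07 SE) of the basement membrane as the largest rises, and Nid1, the nidogen gene, as the fall (-0.50 ± 0.07 SE; limma adjusted p from 0.00693 to 0.0256 for the 4). Of the 16, 7 had an unadjusted p under 0.05 by limma, 8 were above 0 and the median change was 0.02. The mean level was 7.44 and 7.47 in shVector and 7.65 and 7.68 in shPhf19. Of 14 markers of undifferentiated cells limma called 0, with 6 at an unadjusted p under 0.05, and the smallest p-values were those of Nanog (-0.26 ± 0.05 SE, limma adjusted p = 0.0923) and Klf4 (-0.22 ± 0.05 SE, limma adjusted p = 0.114). The other 4 of the 6, named after their values were seen, were above 0 on their representative probe sets. They ran from 0.15 for Utf1 to 0.25 for Dppa4, with Fgf4 and Sall4 between. The other Sall4 probe set was at -0.27 and was not called. Of the 14, 8 were above 0 and the median change was 0.01. Their mean level lay between 12.21 and 12.28 on every array. In bulk RNA, more cells with a transcript and more transcript per cell cannot be told apart, and the part of endoderm-like cells in the Cubn and Dab2 values was not tested.

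No marker of other cell types was called higher. Of 8 kidney proximal tubule markers limma called 0 and 0 had an unadjusted p under 0.05, with Slc22a8 at -0.12 ± 0.10 (SE, limma adjusted p = 0.704) and Aqp1 at 0.09 ± 0.10 (SE, limma adjusted p = 0.819). Of 10 fibroblast markers limma called 0, with 2 at an unadjusted p under 0.05, Pdgfrb at -0.68 ± 0.14 (SE, limma adjusted p = 0.0923) and Thy1 at 0.46 ± 0.12 (SE, limma adjusted p = 0.169). Of 7 trophoblast markers 1 fell, Tfap2c (-0.85 ± 0.10 SE, limma adjusted p = 0.0177). Mean levels ran from 5.33 to 5.45 over the arrays for the tubule list, from 4.58 to 4.74 for the fibroblast list and from 5.68 to 5.77 for the trophoblast list.

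**Figure D4:**
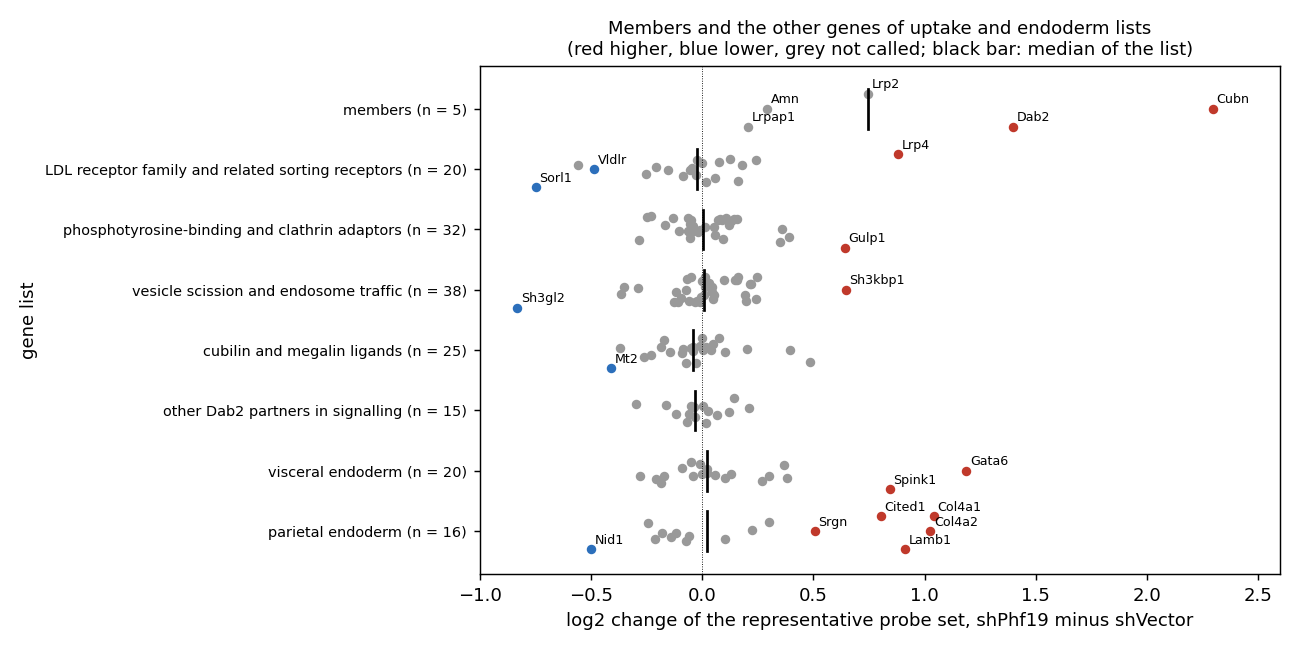
Log2 change of the representative probe set of each gene, shPhf19 minus shVector, for the 5 members and 7 gene lists. Red points were called higher, blue lower and grey not called, and black bars are medians. The lists' medians lie between -0.04 and 0.02, with Cubn (2.30) and Dab2 (1.40) to the right of every representative probe set in the 7 lists. The other probe sets of Sox17 (1.41) and Rab11a (-0.71), both called, are not plotted.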

How the data were processed

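Total RNA of 4 F9 samples was hybridised to Affymetrix Mouse Genome 430 2.0 arrays, per the labels and the design text. The authors deposited 1 log2 value per probe set and array. Neither software, normalization nor scale is given in the sources here. Normalization between arrays was inferred from nearly equal medians, and the log2 scale from the range of values (2.31 to 14.7, where natural logs of a 16-bit scanner end at 11.1), and values are not centred on genes. Array medians were 5.77 and 5.75 in shVector and 5.76 and 5.76 in shPhf19. No scanner files were used.

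After 64 control probe sets were left out, 45037 were fitted with limma 3.58.1 in R 4.3.3 (lmFit, eBayes with an intensity trend, two-sided, Benjamini-Hochberg). The fit has 2 residual degrees of freedom (median 6.51 after moderation). An exact permutation test of 2 arrays against 2 cannot go below p = 0.333 and was not run. The code of the fit was run on simulated data with independent errors, and nothing about the 4 arrays is read from that run. The platform annotation gave 34945 of the probe sets 1 symbol, 932 several and 9160 none. The 5 members and all lists were chosen with earlier results of these data known. Named by rule were all member probe sets, per list up to 3 called genes in each direction (or the 2 with the smallest p), and the 5 nearest profiles. Genes of the lists without a probe set of their own symbol alone were not analysed here. Of the ligand list's 25 genes, 7 were also markers. Alternatives were other scaling, dim-probe filters, no variance trend, a replicate block, the mean of probe sets and leaving out each array.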

Additional observations from a re-analysis of the deposited data

How the results depend on the processing

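The differences of the 14 member probe sets kept their sign under every alternative that gave a value, and filters on dim probe sets removed some of the dimmest. Without any 1 array, calls over the whole array fell from 636 to 0 (0 to 0), while 2539 to 6942 had an unadjusted p under 0.05 (5708 with all arrays). Calls among members (3) and among the LDL receptor family (3), adaptor (1), scission and endosome (2) and ligand (1) lists were likewise 0 in each case. Without a variance trend 380 probe sets were called over the whole array, and the adaptor and ligand lists had 0. The mean of all probe sets of a gene gave 0 adaptor, 1 scission and endosome and 2 ligand calls, and leaving out the lowest 50% of probe sets gave 2 ligand calls. Lrp2 1452320_at was called with quantile normalization and without the lowest 50% of probe sets, at differences of 0.73 and 0.75.

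The replicate numbers are shared by the groups, and whether they mark samples prepared together is not stated. Arrays with the same number did not deviate from their group means in the same direction (correlation of deviations -0.197). That value cannot show how the samples were prepared. The replicate block gave 0 calls over the whole array, among members and in the LDL receptor family, adaptor, scission and endosome and ligand lists. The crossed block, chosen after seeing the data, called 596 probe sets over the whole array, 3 member probe sets, 1 scission and endosome gene and 2 ligand genes. The block fits and those without 1 array each have 1 residual degree of freedom.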
